A study of Mus musculus with 15 samples.

Results

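The INO80 complex genes examined here were Ino80, Ino80b, Ino80c, Ino80d, Ino80e, Actr5, Actr8, Nfrkb, Tfpt and Mcrs1, which encode subunits of a chromatin remodeller that the transcription factor YY1 binds. The rule names the genes and uses no value measured at them, and they were located by symbol. A peak was taken as belonging to a gene when it overlapped by at least 1 bp the gene span of the mouse build mm10 widened by 5 kb on each side. All 10 genes were found among 21883 protein-coding genes. Together they held 93 of the 95112 peaks of the 12 libraries used.

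The data come from CUT&Tag, in which an antibody brings a transposase to its target and the enzyme cuts and tags the DNA beside it. HPC-7, a mouse early haematopoietic line derived from embryonic stem cells, was profiled with about 150000 cells per reaction. The groups, each with 3 libraries called biological replicates, were cells with an shRNA against YY1 (shYY1) profiled for the cohesin subunit SMC3, and control cells profiled for SMC3, for YY1 and for the promoter mark H3K4me3. Another 3 IgG libraries were not analysed here. The titles call the control cells wild type and the descriptions name them shLUC, and every shYY1 description reads shYY1-2; the sources used here do not say what that number marks, nor whether each arm is a clone or a pool. Only the first SMC3 library of each arm has Abcam in its description, whereas the protocol gives 1 Abcam antibody for SMC3. YY1 was not profiled in the shYY1 cells used here, so how far it was depleted was not measured.

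INO80 is an ATP-driven machine that slides nucleosomes and acts in transcription, replication and DNA repair. Ino80 is its motor and scaffold. Ino80b, Ino80c and the actin-related protein Actr5 sit at the motor domain, and Actr8, another actin-related protein, belongs to the module that touches DNA beside the nucleosome. Ino80d, Ino80e, Nfrkb, Tfpt and Mcrs1 are subunits found in animals and not in yeast. In mammals YY1, a zinc finger protein that binds promoters, copurifies with this complex and uses it as a coactivator. Cohesin, of which SMC3 is a ring subunit, holds DNA in loops and holds sister chromatids together.

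The lists differed in length, which sets how many genes can carry a peak. They held 2631 to 3213 peaks for shYY1 SMC3, 2061 to 4595 for control SMC3, 3750 to 10699 for YY1 and 16763 to 17895 for H3K4me3. YY1 replicate 3 and control SMC3 replicate 3 were the shortest lists of their groups. No scores or read counts are in the lists, so the depth is unknown and only the presence, position and length of a peak can be given. H3K4me3 lay in at least 2 libraries at 12 of 12 genes of early blood cells, among them Gata2, Tal1 and Runx1, at 0 of 6 genes of other tissues and at 0 of 4 pluripotency genes, against 55.0% of all protein-coding genes.

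RefSeq start sites, with 250 bases before and 50 bases after, were on hand for 6 of the 10 genes, as 7 promoter windows (build GRCm38.p6, the assembly of mm10). All 7 are shown, since all carried H3K4me3 in 3 libraries but only 3 (Ino80, Nfrkb and Mcrs1) carried YY1 inside the window. The other 4 (Ino80b, both starts of Ino80e, and Tfpt) did not. At Tfpt, a YY1 site called in replicates 1 and 2 lay just outside the window. Its nearer edge, set by replicate 1, was 63 bp from the start. The sequences read 5′ to 3′ along the gene. Capitals mark a match, on either strand, to 1 of 2 versions of the YY1 core motif, ATGGCGG and ANATGGC, which share the letters ATGGC. The windows are chr2:119477638-119477937 (minus strand) for Ino80, chr9:31385942-31386241 (plus) for Nfrkb, chr15:99251912-99252211 (minus) for Mcrs1, chr6:83125070-83125369 (minus) for Ino80b, chr7:126862323-126862622 (minus) and chr7:126861414-126861713 (minus) for Ino80e, and chr7:3629880-3630179 (minus) for Tfpt.
Ino80: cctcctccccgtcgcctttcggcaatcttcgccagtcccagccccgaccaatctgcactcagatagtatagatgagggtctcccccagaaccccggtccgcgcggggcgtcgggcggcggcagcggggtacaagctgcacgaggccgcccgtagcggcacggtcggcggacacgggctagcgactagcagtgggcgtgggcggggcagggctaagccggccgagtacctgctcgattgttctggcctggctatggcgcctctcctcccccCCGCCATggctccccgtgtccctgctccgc
Nfrkb: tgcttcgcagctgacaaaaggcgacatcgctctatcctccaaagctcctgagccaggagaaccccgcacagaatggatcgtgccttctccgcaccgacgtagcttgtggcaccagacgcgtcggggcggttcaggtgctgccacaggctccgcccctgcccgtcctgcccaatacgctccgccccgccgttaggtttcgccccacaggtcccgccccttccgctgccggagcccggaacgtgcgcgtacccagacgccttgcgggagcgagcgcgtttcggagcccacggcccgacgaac
Mcrs1: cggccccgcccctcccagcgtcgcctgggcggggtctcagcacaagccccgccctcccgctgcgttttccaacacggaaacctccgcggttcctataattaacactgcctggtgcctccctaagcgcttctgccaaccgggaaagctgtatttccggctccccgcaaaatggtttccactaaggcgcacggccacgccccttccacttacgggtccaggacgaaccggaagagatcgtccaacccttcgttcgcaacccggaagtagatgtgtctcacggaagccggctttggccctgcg
Ino80b: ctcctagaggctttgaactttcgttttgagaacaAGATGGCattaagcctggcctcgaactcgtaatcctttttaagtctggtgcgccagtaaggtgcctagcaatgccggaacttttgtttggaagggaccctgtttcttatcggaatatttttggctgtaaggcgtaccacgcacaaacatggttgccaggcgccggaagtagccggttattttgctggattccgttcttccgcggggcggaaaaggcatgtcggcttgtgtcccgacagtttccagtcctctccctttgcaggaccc
Ino80e: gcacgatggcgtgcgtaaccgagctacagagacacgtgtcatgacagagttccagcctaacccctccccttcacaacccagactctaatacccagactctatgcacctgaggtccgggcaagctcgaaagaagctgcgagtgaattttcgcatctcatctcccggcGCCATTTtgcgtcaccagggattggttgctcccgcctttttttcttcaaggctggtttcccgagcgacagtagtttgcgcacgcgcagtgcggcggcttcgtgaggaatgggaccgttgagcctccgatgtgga
Ino80e, second start: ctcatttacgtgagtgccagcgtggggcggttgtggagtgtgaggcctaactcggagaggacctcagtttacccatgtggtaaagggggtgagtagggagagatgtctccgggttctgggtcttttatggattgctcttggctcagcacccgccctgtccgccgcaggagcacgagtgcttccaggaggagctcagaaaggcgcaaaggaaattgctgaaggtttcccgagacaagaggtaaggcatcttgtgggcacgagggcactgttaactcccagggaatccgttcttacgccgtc
Tfpt: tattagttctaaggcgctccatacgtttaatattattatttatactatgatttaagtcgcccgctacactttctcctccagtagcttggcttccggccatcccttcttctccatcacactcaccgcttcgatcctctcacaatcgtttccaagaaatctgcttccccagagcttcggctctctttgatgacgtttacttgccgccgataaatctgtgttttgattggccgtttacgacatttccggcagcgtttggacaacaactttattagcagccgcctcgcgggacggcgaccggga

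Of the 6 genes, 3 held 1 of these strings. ATGGCGG occurred once, on the opposite strand at Ino80, where it began 20 bp after the start, and in no other of the 6 genes. It was held by 4.05% of all 32851 RefSeq promoter windows, by 12.3% of 6104 windows with H3K4me3 and YY1 in at least 2 libraries, and by 4.37% of 3363 with H3K4me3 and no YY1. ANATGGC occurred in 2 of the 6 genes, Ino80b (216 bp before the start) and Ino80e (84 bp before it), and in 15.1% of all windows, 19.3% of those with H3K4me3 and YY1 and 9.22% of those with H3K4me3 and no YY1. Of the 3 windows with YY1, Ino80 held a motif and Nfrkb and Mcrs1 held neither; of the 4 without YY1, 2 held ANATGGC, and Tfpt and the second start of Ino80e held neither. A match is only a string of letters, and where neither is found, these letters are absent from this window only. The 7 windows had a median GC content of 56.7% and a median of 23 CpG, against 52.7% and 7 CpG over all windows and 63.0% and 24 CpG over windows with H3K4me3 and YY1.

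H3K4me3 marked 10 of 10 members in all 3 libraries, against 54.2% of all protein-coding genes. In at least 2 libraries it marked 55.0% of all genes, the 12043 called genes with H3K4me3 here, and 98.6% of those had it in all 3. It was broadest at Ino80, with lengths of 1791, 1784 and 1776 bp, at or above the 96.1 percentile of peak length in each library. Actr8 had 895, 902 and 762 bp. At Ino80b, 2 separate H3K4me3 peaks were called in each library. That over its own start was only 521, 484 and 472 bp long, and that at the far end of the gene 1151, 1209 and 1235 bp.

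YY1 was called in at least 2 of 3 libraries at 9 of 10 INO80 complex genes, against 36.7% of all protein-coding genes and 66.4% of genes with H3K4me3. It was called in all 3 libraries at 6 members, Ino80, Ino80b, Ino80c, Ino80d, Actr8 and Tfpt, against 19.3% of all genes and 35.0% of those with H3K4me3. Actr5, Nfrkb and Mcrs1 had YY1 in replicates 1 and 2, and not in replicate 3, the shortest YY1 list. Ino80e alone had none in any library, as had 55.6% of all genes and 20.5% of genes with H3K4me3. Member spans had a median of 15.7 kb, against 22.4 kb for genes with H3K4me3, and ran from 3.4 kb (Ino80b) to 105.6 kb (Ino80).

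**Figure D1:**
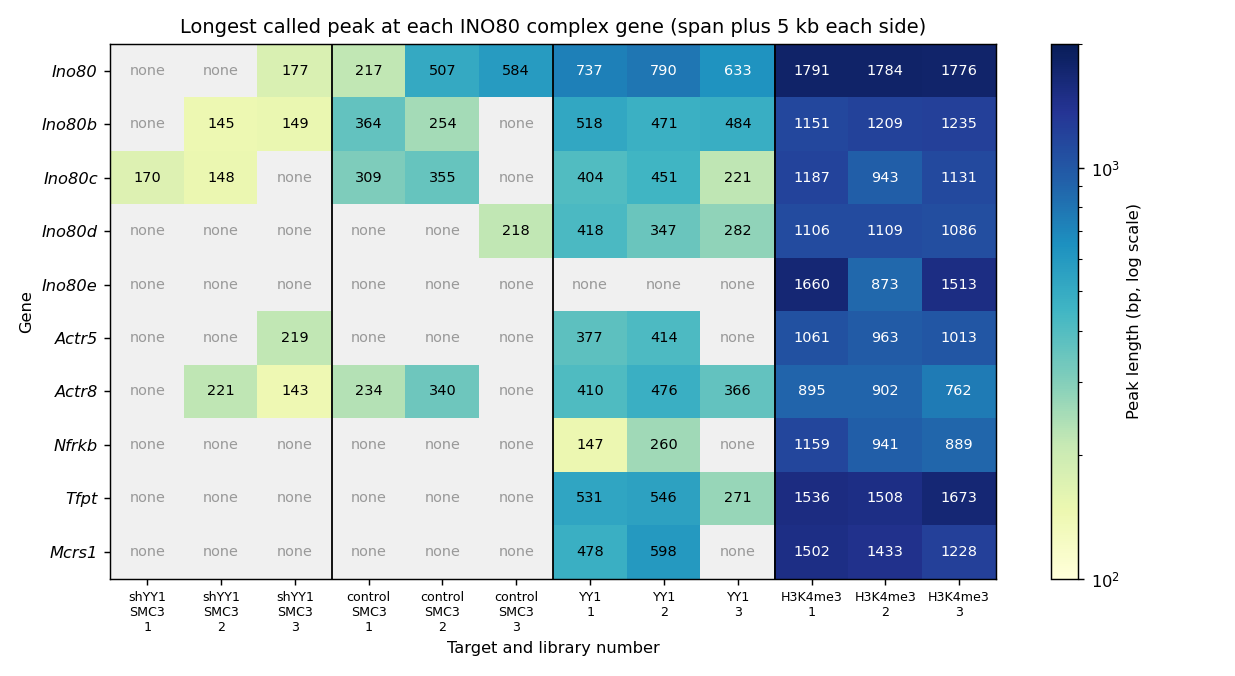
Each row is an INO80 complex gene and each column a library, grouped by target, with the length in bp of the longest peak written in the cell and coloured on a log scale; grey cells had no peak. H3K4me3 fills every row, YY1 every row but Ino80e, and SMC3 6 of the rows, with 1 to 4 genes per shYY1 library and 2 to 4 per control library.

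The motor gene Ino80 (chromosome 2, 119373042 to 119478685) carried the longest YY1 peaks of the members. They were 737, 790 and 633 bp long, at the 96.1, 94.1 and 92.1 percentiles of their lists, whose median lengths were 314, 365 and 321 bp. A second, shorter YY1 peak of 139 and 323 bp was called nearby in replicates 1 and 2. SMC3 was called at the main site in 1 of 3 shYY1 libraries, with a length of 177 bp in replicate 3. All 3 control libraries had it, with lengths of 217, 507 and 584 bp. The shYY1 peak was thus shorter than every control peak, and the other 2 shYY1 libraries had none. Control in 3 and shYY1 in at most 1 library was found at 0.832% of all genes and 1.50% of genes with H3K4me3. Of the 10 members 1 had it, Ino80 itself, whose own pattern it describes, so the member count adds no evidence. With 3 libraries a side, the smallest two-sided p of an exact permutation test is 0.1, so no such contrast at a single gene could pass 0.05. Leaving out control replicate 3 gives 2 of 2 control libraries against the same 1 of 3.

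At the main site of Ino80 most summits coincided between antibodies. Those of control SMC3 replicates 2 and 3, YY1 replicates 1 and 3 and shYY1 replicate 3 lay between positions 119477866 and 119477868, 179 to 181 bp upstream of the RefSeq start, and so did all 3 H3K4me3 summits. That start lies inside the annotated span, and so do these summits, 817 to 819 bp from its upper end. The exceptions were control SMC3 replicate 1 and YY1 replicate 2, with summits 47 and 41 bp upstream. The second YY1 peak, in replicates 1 and 2, had its summits 591 and 594 bp downstream of the start. None of these lay on the ATGGCGG match shown above, downstream of the start.

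Ino80b (chromosome 6, 83121765 to 83125119), a subunit at the motor domain, had YY1 and SMC3 at the opposite end from its start. Its single site, 83121255 to 83121922, lay 3197 bp from that start and within 1 kb of an end of the neighbouring gene Wbp1. YY1 peaks were 518, 471 and 484 bp long there. SMC3 had 145 and 149 bp in shYY1 replicates 2 and 3 and none in replicate 1, against 364 and 254 bp in control replicates 1 and 2 and none in replicate 3. Both shYY1 peaks were shorter than both control peaks. The start of Ino80b itself, whose sequence is shown above, carried H3K4me3 and neither YY1 nor SMC3 in any library.

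Ino80c (chromosome 18, 24104761 to 24121819), which partners Actr5, had a pair of sites that differed. At the upper end of the span, 24121546 to 24121999, YY1 was called in 3 libraries (404, 451 and 221 bp) and SMC3 in 0 of 3 shYY1 libraries, against 2 of 3 control libraries (309 and 355 bp). At 24101713 to 24102013, 2748 bp outside the lower end, YY1 was called in 2 libraries, and SMC3 in 2 shYY1 libraries (170 and 148 bp) and 2 control libraries (158 and 132 bp). H3K4me3 there was 303 to 327 bp long. The equal gene counts, 2 of 3 libraries in each arm, therefore come in shYY1 cells from the outlying site alone. Control SMC3 in at least 2 and shYY1 SMC3 in no library was found at 1 of the 12 member sites with YY1 in at least 2 libraries, against 5.37% of 7814 such sites in the genome. That 1 site is the upper site of Ino80c, whose own pattern is described, so the member count adds no evidence.

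**Figure D2:**
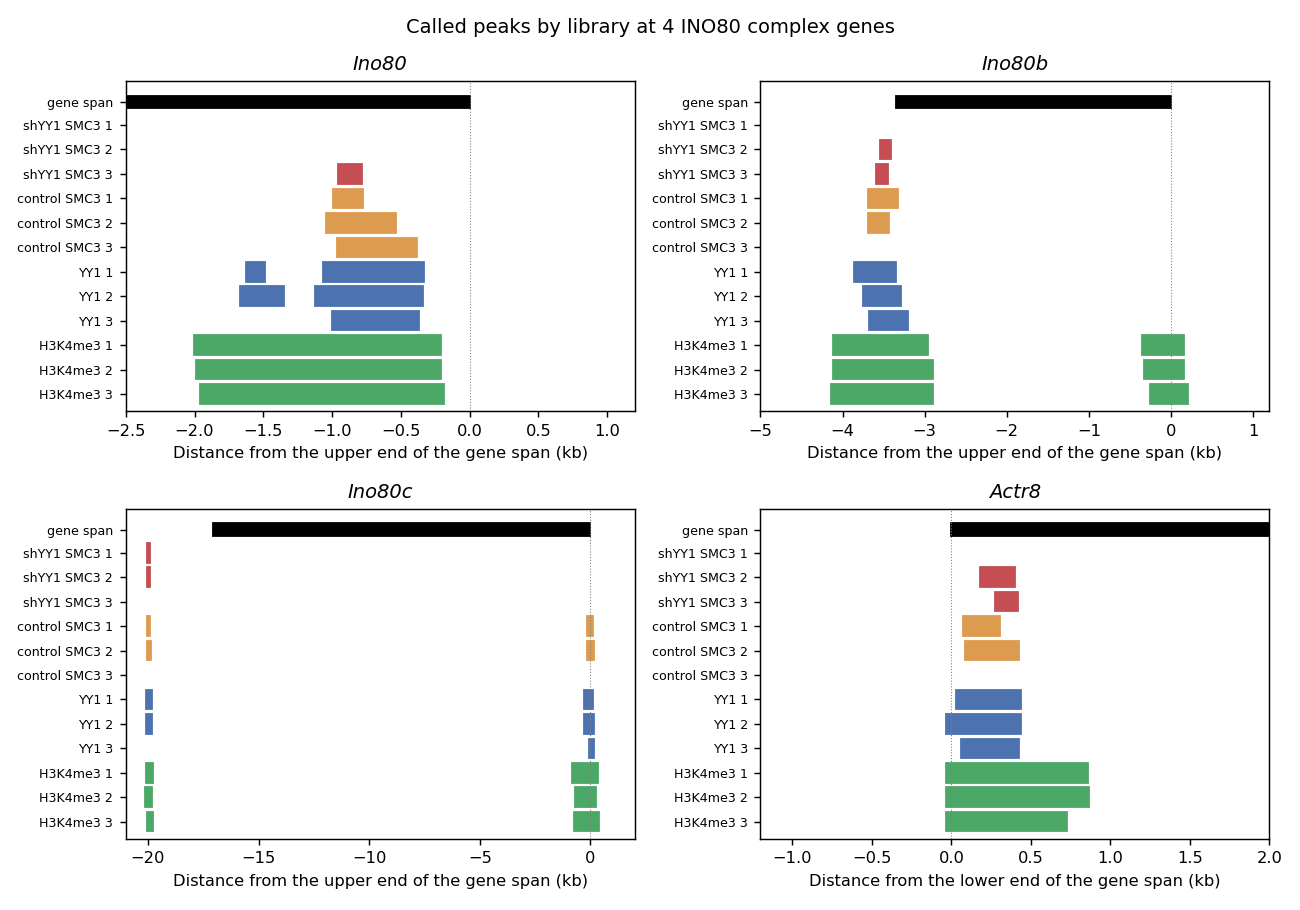
Called peaks (coloured bars) in each of the 12 libraries at Ino80, Ino80b, Ino80c and Actr8, with the gene span in black and the distance in kb from 1 end of the span on the horizontal axis. The SMC3 peaks sit inside the stretches that YY1 peaks cover; at Ino80c the site at 0 kb has SMC3 in 2 control libraries and no shYY1 library, and at Ino80b the YY1 and SMC3 peaks lie at the far end from the H3K4me3 peak over the gene's start.

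Both actin-related protein genes had YY1 at the lower end of the span, but SMC3 differed. Actr8 (chromosome 14, 29978337 to 29995452) had YY1 peaks of 410, 476 and 366 bp. SMC3 had 221 and 143 bp in shYY1 replicates 2 and 3 and none in replicate 1, against 234 and 340 bp in control replicates 1 and 2 and none in replicate 3. The summits of shYY1 replicate 3, control replicate 2 and all 3 H3K4me3 libraries fell on the same base, 29978629. Actr5 (chromosome 2, 158624881 to 158639211) had YY1 of 377 and 414 bp in 2 libraries. It was the only member with SMC3 in more shYY1 than control libraries, 1 of 3 (219 bp) against 0 of 3, a direction seen at 4.36% of all genes and 7.64% of those with H3K4me3.

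Of the subunits particular to animals, Ino80d was the only one with SMC3 in any library. Ino80d (chromosome 1, 63047801 to 63114267) had YY1 of 418, 347 and 282 bp just outside its upper end, on the smaller of its H3K4me3 peaks (584, 657 and 570 bp) and not on the larger (1106, 1109 and 1086 bp). SMC3 was called there in 0 of 3 shYY1 libraries, against 1 of 3 control libraries (218 bp in replicate 3). The opposite-strand non-coding gene Ino80dos has an end within 1 kb of that site, so the genes cannot be told apart there.

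Nfrkb (chromosome 9, 31386162 to 31421333), whose product binds the deubiquitinase Uchl5, had short YY1 peaks, 147 and 260 bp in replicates 1 and 2, at a site that covers its start and lies within 1 kb of an end of the non-coding gene 1700023A20Rik. Mcrs1 (chromosome 15, 99242817 to 99251961), shared with an acetyltransferase complex, had YY1 of 478 and 598 bp over its start, where the non-coding gene 1700120C14Rik also has an end. At both sites the member and its non-coding neighbour cannot be told apart. Neither gene had SMC3 in either arm.

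Tfpt (chromosome 7, 3620324 to 3629929) counted among the genes with YY1 in 3 libraries through a neighbour. That site, 3617063 to 3617609, lay 2715 bp outside the span and within 1 kb of ends of Ndufa3 and Oscar, with YY1 of 531, 546 and 271 bp. At the end that holds the start of Tfpt, which it shares with the splicing gene Prpf31, YY1 had 267 and 230 bp in replicates 1 and 2 and none in replicate 3. The H3K4me3 peaks at that end also lie within 1 kb of the non-coding gene Gm15927. Ino80e (chromosome 7, 126851584 to 126862372) shares its start region with Hirip3 and had H3K4me3 of 1660, 873 and 1513 bp, with another peak of 397 bp in replicate 2, and no YY1 or SMC3. SMC3 was called in no library of either arm at 4 members, Ino80e, Nfrkb, Tfpt and Mcrs1, against 71.9% of all genes and 49.6% of those with H3K4me3. By the rule of at least 2 libraries, 5 members (Ino80d, Actr5, Nfrkb, Tfpt and Mcrs1) had YY1 and no SMC3 in either arm (17.5% of all genes, 31.7% of those with H3K4me3).

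With peaks left out that lay within 1 kb of an end of another protein-coding gene, a count chosen after the sites had been seen, 7 of 10 members had YY1 in at least 2 libraries, against 24.8% of all genes. By this count shYY1 SMC3 was at 2 members (9.29% of all genes), control SMC3 at 3 (12.2%) and H3K4me3 at 8 (42.0%). Peaks near an end of a non-coding gene were kept, so Ino80d, Nfrkb and Mcrs1 are among the 7 with YY1. By the same count Ino80b and Tfpt had no YY1, and Tfpt and Ino80e no H3K4me3. All of those YY1 and H3K4me3 peaks lay within 1 kb of an end of another protein-coding gene.

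SMC3 of either arm was called at fewer members than YY1, which was profiled in control cells only. The order was the same over all genes, of which 36.7% had YY1. In at least 2 of 3 libraries SMC3 was called at 3 of 10 members in shYY1 cells (Ino80b, Ino80c and Actr8) and at 4 in control cells (those and Ino80). The background was 14.3% of all genes for shYY1 and 18.7% for control, and 25.7% and 33.8% of genes with H3K4me3. In all 3 libraries it was called at 0 members in shYY1 cells (9.55% of all genes, 17.2% of those with H3K4me3) and at 1, Ino80, in control cells (9.81% and 17.7%). At least 2 libraries of each arm had it at 3 members (13.3% and 24.1%). Requiring both remaining libraries, the shYY1 count was 0 without replicate 2 and 1 without replicate 3, and the control count was 1 without replicate 1 and 1 without replicate 2. The number of members with a peak was 1, 3 and 4 in the shYY1 libraries, against 4, 4 and 2 in the control libraries. Of all protein-coding genes 13.6%, 15.9% and 15.3% had a peak in those shYY1 libraries, against 22.0%, 22.4% and 10.7% in the control libraries. In each arm the members' count was thus lowest in the library where the share over all genes was lowest. The means were 2.67 ± 1.53 in shYY1 and 3.33 ± 1.15 in control cells (SD, n = 3 each), a difference of -0.67 that is smaller than either SD, and the arms overlapped. Its sign turned to 0.17 without shYY1 replicate 1 and to 0.50 without both libraries whose description names Abcam, it was -0.33 without control replicate 1 or without control replicate 2, and it was -1.33 without shYY1 replicate 3 or without control replicate 3. SMC3 was called in fewer shYY1 than control libraries at 2 members, Ino80 and Ino80d, against 11.9% of all genes and 21.3% of those with H3K4me3. It was called in as many shYY1 as control libraries, and at least 1, at 3 members (11.9% and 21.4%).

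**Figure D3:**
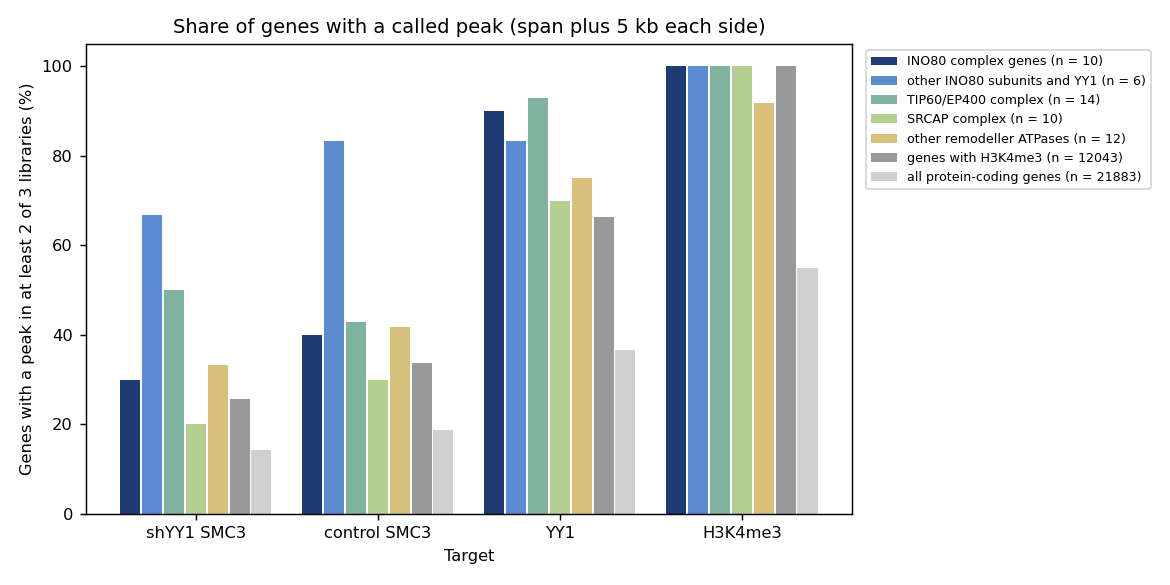
Bars give the percentage of genes with a peak in at least 2 of 3 libraries for each target, for the INO80 complex genes, 4 other lists of remodeller genes, genes with H3K4me3 and all protein-coding genes. For YY1 the 10 members stand at 90.0%, against 66.4% of genes with H3K4me3; for SMC3 they stand at 30.0% in shYY1 and 40.0% in control cells, against 25.7% and 33.8%.

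Every SMC3 peak at the members lay on a YY1 peak, as nearly all SMC3 peaks of the genome did. All 8 shYY1 and all 12 control SMC3 peaks of the members overlapped YY1, against 97.3% of all shYY1 and 96.5% of all control SMC3 peaks. Each was contained in the stretch that the YY1 peaks covered, against 90.7% of all shYY1 and 87.8% of all control SMC3 peaks. All 50 YY1 and SMC3 peaks of the members (100%) overlapped H3K4me3 peaks of at least 2 libraries, against 93.1% of all shYY1 SMC3, 92.7% of all control SMC3 and 91.8% of all YY1 peaks. The members' shares are thus near those of all peaks. Merged where they shared a base, they formed 12 sites, each with YY1 in at least 2 libraries. YY1 was in all 3 libraries at 6 of the 12, against 45.6% of such sites in the genome, and SMC3 in no library at 5, against 34.1%. Sites with YY1 in 3 libraries had SMC3 in any library at 5 of 6 members' sites (84.3% of 3562 such sites in the genome), and sites with YY1 in 2 libraries at 2 of 6 (50.6% of 4252). Of the 12 sites, shYY1 SMC3 was called in at least 2 libraries at 3 and control SMC3 at 5, against 33.5% and 43.9% of all sites with YY1 in at least 2 libraries.

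Many summits of different antibodies lay within 5 bp of each other, at the members and genome-wide. Within 5 bp of an H3K4me3 summit lay 5 of 8 shYY1 SMC3 summits, 5 of 12 control SMC3 summits and 11 of 30 YY1 summits. Over all peaks the shares were 29.1% for shYY1 SMC3, 29.8% for control SMC3 and 32.7% for YY1. Within 5 bp of a YY1 summit lay 5 of 8 shYY1 and 8 of 12 control SMC3 summits, against 43.4% and 43.5% of all SMC3 peaks. The comparison of summits was chosen after the member summits had been seen. Summits of different libraries at the same site are also not independent. IgG was not analysed here, and whether a background common to the antibodies has a part in these shared positions was not tested.

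**Figure D4:**
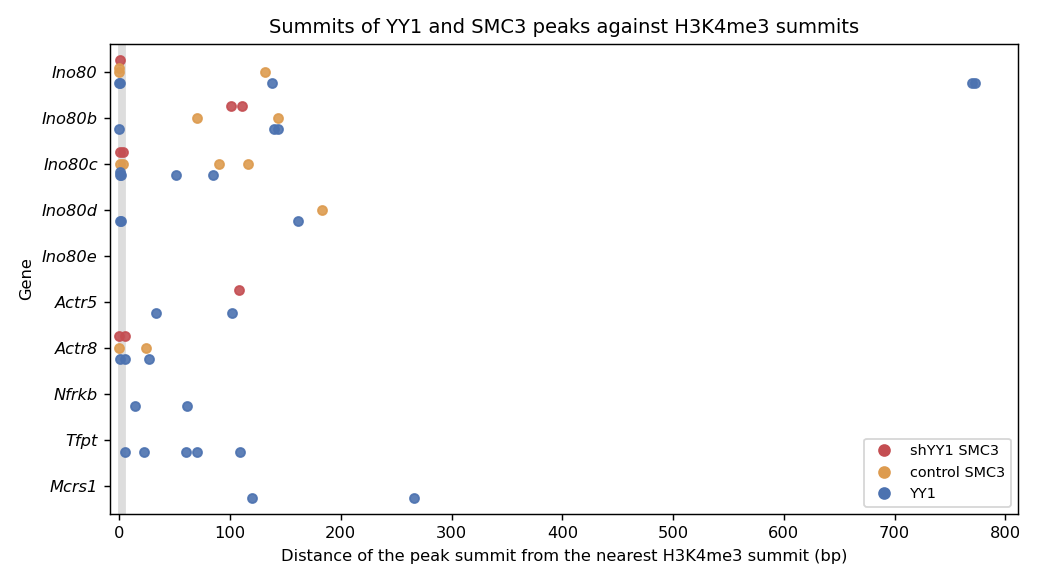
Each point is a YY1 or SMC3 peak of an INO80 complex gene, placed by the distance in bp of its summit from the nearest H3K4me3 summit of any library; the grey band marks 5 bp. Points in the band come from Ino80, Ino80b, Ino80c, Ino80d, Actr8 and Tfpt, and the second YY1 peak of Ino80 lies farthest out.

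No gene passed the test of SMC3 peak length between the arms. The limma fit on log2 length of the longest SMC3 peak covered the 1625 genes with SMC3 in all 6 libraries and called 0 (0%) at an adjusted p under 0.05, with 95 genes at an unadjusted p under 0.05. No member entered it, since none had SMC3 in all 6 libraries (7.43% of all genes and 13.4% of those with H3K4me3 did). In a fit of 2921 genes with SMC3 in at least 2 libraries of each arm, 3 members entered, 0 genes were called and 212 had an unadjusted p under 0.05. The shYY1 minus control difference in log2 length was -1.05 (SE 0.27, limma adjusted p = 0.578) for Ino80b and -0.67 (SE 0.33, limma adjusted p = 0.763) for Actr8. For Ino80c it was -1.06 (SE 0.24, limma adjusted p = 0.578), but this sets the outlying site in shYY1 against the site at the gene end in control. The median over all genes of that fit was -0.141, and 71.2% were below 0.

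Other genes of the same machinery were counted from lists of remodeller subunits, by the rule of at least 2 libraries that calls YY1 at 36.7%, shYY1 SMC3 at 14.3% and control SMC3 at 18.7% of all genes. Of genes with H3K4me3 it calls them at 66.4%, 25.7% and 33.8%. H3K4me3 itself was at 11 of 12 of the other remodeller ATPases and at every gene of the remaining lists, against 55.0% of all genes. Of 6 genes, namely further INO80 subunits and Yy1, YY1 was at 5, shYY1 SMC3 at 4 and control SMC3 at 5. At Actl6a, Actb, Uchl5 and Yy1 itself all 6 SMC3 libraries had a peak, as at 7.43% of all genes and 13.4% of those with H3K4me3. Ruvbl2, a AAA+ ATPase of the complex, had SMC3 in 0 shYY1 and 2 control libraries, and its partner Ruvbl1 had YY1 in 1 library and no SMC3. The SRCAP complex, which exchanges histone H2A.Z, had YY1 at 7 of 10, shYY1 SMC3 at 2 and control SMC3 at 3, with none at Srcap, Znhit1 or Vps72. The TIP60/EP400 complex had YY1 at 13 of 14, shYY1 SMC3 at 7 and control SMC3 at 6, with Ep400 called in every library and Kat5, its acetyltransferase, without SMC3. Ing3, of the same complex, had SMC3 in 2 shYY1 and 0 control libraries. Other remodeller ATPases had YY1 at 9 of 12, shYY1 SMC3 at 4 and control SMC3 at 5, and the direction varied among them. Chd4 had SMC3 in 0 shYY1 and 3 control libraries, Chd1 in 0 shYY1 and 2 control libraries, and Chd8 in 3 shYY1 and 1 control library. Actl6a, Ruvbl1 and Ruvbl2 are counted under SRCAP as well, a pair of SRCAP genes recurs under TIP60/EP400, and the differences between lists were not tested.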

How the data were processed

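Peak lists of 12 CUT&Tag libraries of HPC-7 cells, 1 list per library, were used as the authors deposited them. The tools named, per the submitters' processing notes, are MACS2 2.2.9.1, Picard 3.1.1, cutadapt 4.5 and Bowtie2 2.5.1, with the build mm10. The sources used here do not give their settings, the peak threshold or any use of IgG. Per the file headers, the lists give chromosome, start, end, name and summit offset in bp, with no score or count. Starts were read as counted from 0, because offsets begin at 0, and are printed counted from 1. Between 49 and 99 numbers are missing from the peak names of each list.

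Peaks were assigned to RefSeq protein-coding gene spans of GRCm38.p6 widened by 5 kb with at least 1 bp of overlap, and a gene was called for a target with a peak in at least 2 of 3 libraries. The members and lists were chosen with earlier results of these data known, so lists are given as counts beside the share of all genes, without a test. SMC3 peak length was fitted with limma 3.58.1 in R 4.3.3 over all genes with a peak in all 6 SMC3 libraries, with Benjamini-Hochberg adjustment and a threshold of 0.05. Counts used Python 3.11.15. The scripts were tested on simulated data. Yy1ap1 was not found in the annotation. The text names all members, neighbours with an end within 1 kb of a member peak, and up to 6 genes per list. Depth per library is unknown, so no interval is given. Alternatives were other widenings, library minimums and overlaps, longer peaks, equal list lengths, leaving out each replicate and a replicate block.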

Additional observations from a re-analysis of the deposited data

How the results depend on the processing

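Counting only peaks within 1 kb of a span end, or leaving out peaks near other protein-coding genes, was chosen after the data were seen. So was the comparison of summits within 5 bp. The counts of members with YY1 (6 to 9) and with H3K4me3 (8 to 10) stayed within 1.5 times of 9 and 10 in all 12 alternatives each. For shYY1 SMC3 the count of 3 became 1 without widening, 0 with 3 of 3 libraries, 5 with at least 1 library and 0 with only peaks at or above the median length of each list. Leaving out 1 replicate gave 0 to 2 members, by a rule that then needs both remaining libraries. For control SMC3 the count of 4 became 1 with 3 of 3 libraries, and 1 to 4 leaving out 1 replicate. The difference in members per SMC3 library (-0.67) was 0.50 without both Abcam libraries, and ran from -1.33 to 0.17 leaving out 1 replicate. It was -1.33 without widening, with 2 kb of widening and within 1 kb of a span end, and -1.67 when equally many of the longest peaks were kept per library. Averaged within replicate numbers, as a replicate block, it was -0.67. With 3 libraries in each arm that average always equals the difference of the means, so it is no separate check. The length fit called 0 genes with the block and 0 in its other alternatives. Same-numbered libraries did not deviate together in SMC3 peak length over 1625 genes (r = 0.02, -0.05 and -0.08). The largest value, 0.12, was for shYY1 replicate 3 with control replicate 2. Peak length alone cannot show whether same-numbered libraries were prepared together, so a pairing of the arms remains unknown. ANATGGC in place of ATGGCGG gave 2 members in place of 1. The cause of these changes was not tested. Unknown depth limits every absence of a peak: it means not called, not unbound.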
